A study of Mus musculus with 6 samples.

Results

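The 10 genes described here govern ferroptosis, a form of cell death driven by iron-dependent peroxidation of membrane lipids. They were picked by symbol from the 25330 genes of the count tables, with earlier results of these data known. The 4 protective genes were Gpx4, Slc7a11, Acsl3 and Aifm2. The 5 sensitizing genes were Acsl4, Lpcat3, Ncoa4, Sat1 and Vdac2, and Ptgs2 was the transcript that is widely read as a marker of ferroptosis. The measurements were RNA-seq counts from 6 libraries of wild-type AML12 cells, a mouse hepatocyte line that was established from mice carrying a transforming growth factor alpha transgene. The 3 Control libraries came from cells kept in 21% oxygen in medium with serum, insulin, transferrin, selenium and dexamethasone. The 3 H/R libraries came from cells held for 6 h in 1% oxygen in medium without serum or glucose and then reoxygenated for 2 h. Oxygen and medium changed together, so their parts in any difference cannot be told apart. Whether insulin, transferrin, selenium and dexamethasone were present during H/R is not given in the sources used here.

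Ferroptosis is held back along several routes. The cystine importer built from Slc7a11 and Slc3a2 feeds glutathione synthesis, and the selenoenzyme GPX4 uses glutathione to reduce lipid hydroperoxides. AIFM2, also called FSP1, regenerates the reduced form of coenzyme Q, which traps lipid radicals. ACSL4 activates polyunsaturated fatty acids and LPCAT3 places them in phospholipids, where they are easily oxidised, whereas ACSL3 activates monounsaturated fatty acids that displace them. NCOA4 carries ferritin to the lysosome and so releases iron. SAT1, a polyamine acetyltransferase, and VDAC2, a channel of the outer mitochondrial membrane, sensitize cells to ferroptosis. PTGS2 is the inducible cyclooxygenase of prostaglandin synthesis. In the liver, this form of cell death has been studied in ischemia-reperfusion injury, which H/R of cultured hepatocytes models.

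Total counts ranged from 20438746 to 21854790 per library. Reads of replicates differed by more than sampling noise, with a chi-square per degree of freedom of 2.19 to 16.2, and nothing in the labels says whether replicates were separate cultures, so p-values measure the spread between these libraries. Control replicate 1 stood apart from the rest. It held 61 counts of Serpina1a and 25 of Ahsg, both secreted liver proteins, against at most 1 in any other library, and its share of the ribosomal RNA gene Rn18s-rs5 was 0.601% against 0.133% to 0.201%. The log2 fold change of each of the 10 genes is therefore also given without this library. The hepatocyte label was met only in part. The liver regulator Hnf4a had 2973 to 3209 counts in the controls and at least 2035 after H/R, and the epithelial keratins Krt8 and Krt18 had 31633 to 79895 per library, but albumin (Alb) had 132 to 542 counts in the controls and 31 to 43 after H/R. The bile duct keratins Krt19 and Krt7 had 9261 to 37240 counts. The 9 hepatocyte markers summed to 4125 to 4466 CPM (counts scaled to a common library total) in the controls and 6102 to 6135 after H/R. Of the 7 that were tested, Krt8 and Krt18 were higher, each with a log2 fold change of 0.66, and the secreted proteins Alb (-2.85), Ttr (-3.07), Apob (-1.04) and Apoa1 (-0.99) and the regulator Hnf4a (-0.41) were lower. The bile duct markers summed to 1321 to 1486 CPM in the controls and 2439 to 2533 after H/R. The part of these shifts in the results below was not tested. Of the 7 macrophage and blood markers in the tables, 5 had 3 counts or fewer in every library, as did 4 of 5 endothelial markers.

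The promoter of Slc7a11 carried a feature that set it apart in sequence. RefSeq promoter windows (GRCm38.p6, 250 bases before to 50 after a start site) were found for 9 of the 10 genes and were searched on both strands for TGATGNAA, the element read by C/EBP-ATF dimers of the amino acid response. The element was present in 3.97% of 32851 windows, and 2 or more copies were present in 0.07%. Slc7a11 held 2 copies, at 66 to 59 and 47 to 40 bases before its start site. Of the 114 genes with a window among the 10 genes and the pathway lists used below, Chac1 and Atf3 were the only others with a match. The stretches holding these matches are printed 5′ to 3′ on the strand of the gene, with the element in capitals, either as TGATGCAA or as its reverse complement TTGCATCA.
Slc7a11, chr3:50443614-50443713, minus strand: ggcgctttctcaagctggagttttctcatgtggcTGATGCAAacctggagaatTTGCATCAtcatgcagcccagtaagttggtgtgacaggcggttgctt
Chac1, chr2:119351037-119351068, plus strand: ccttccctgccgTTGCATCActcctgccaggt
Atf3, chr1:191183424-191183455, minus strand: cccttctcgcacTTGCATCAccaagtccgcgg
A shared match is a description of these letters and says nothing on binding. The RNA of the 3 genes did not move alike, since Slc7a11 fell while Chac1 and Atf3 rose, with values given below.

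The windows of Ptgs2 and Ncoa4 are shown because both genes rose and both hold ACGTG, the core of the hypoxia response element, which is present in 19.62% of all windows. In Ptgs2 the core lies just after the start site on both strands, since CACGTG is its own reverse complement. It overlaps TGACG, the core of the cyclic AMP response element, which is present in 20.81%. Ncoa4 has several windows, and the one with the most matches is printed. The Ncoa4 window at start site 32165586 held none of these motifs. In the printed window the core also overlaps a TGACG. There TGACNNNGC, the core of the antioxidant response element present in 12.39%, lies 44 to 36 bases before the start site. Capitals mark these letters. Binding at these sites, and any part of them in the rise of the 2 genes, was not tested.
Ptgs2, chr1:150100035-150100058, plus strand: tcaccactaCGTCACGTGgagtcc
Ncoa4, chr14:32165709-32165788, plus strand: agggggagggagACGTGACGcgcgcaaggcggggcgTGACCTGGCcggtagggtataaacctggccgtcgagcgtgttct
Vdac2 had no window. Of the 9 genes with one, Ptgs2 and Ncoa4 were the only 2 with an ACGTG match. By window, 3 of the 14 windows of these genes held ACGTG, which is close to the 19.62% of all windows. Sat1, which rose as well, had no match to any of these 4 motifs. CACCC, the box read by KLF factors, was present in 57.52% of all windows and in 7 of the 14 windows of these genes. Those windows belong to 6 of the 9 genes.

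Each gene was compared between groups with edgeR's quasi-likelihood test, and p-values were adjusted by Benjamini-Hochberg over the 14020 genes that passed the filter on low counts. All 10 genes passed that filter. At an adjusted p under 0.05, 3 of the 10 were higher after H/R (Ptgs2, Sat1 and Ncoa4), 2 were lower (Slc7a11 and Lpcat3) and 5 did not pass (Gpx4, Acsl3, Aifm2, Acsl4 and Vdac2). Over all tested genes 62.8% passed, 31.0% higher and 31.8% lower, so the 5 of 10 is close to the background. The Control and H/R groups did not overlap in the same 5 genes, against 65.9% of all tested genes. At least 2-fold change was asked as well by the study, and of the 10 genes Ptgs2 met it, against 8.52% of all tested genes, 4.25% upward and 4.27% downward. The direction of calls over all genes depended on the scaling of libraries. With TMM scaling, 4353 genes were called higher and 4453 lower, and with library totals alone 3346 and 5478, with a median log2 fold change over all tested genes of -0.01 and -0.12. With library totals, 3 of the 10 genes were called higher and 5 lower, Aifm2, Acsl4 and Acsl3 being added to the lower ones.

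**Figure D1:**
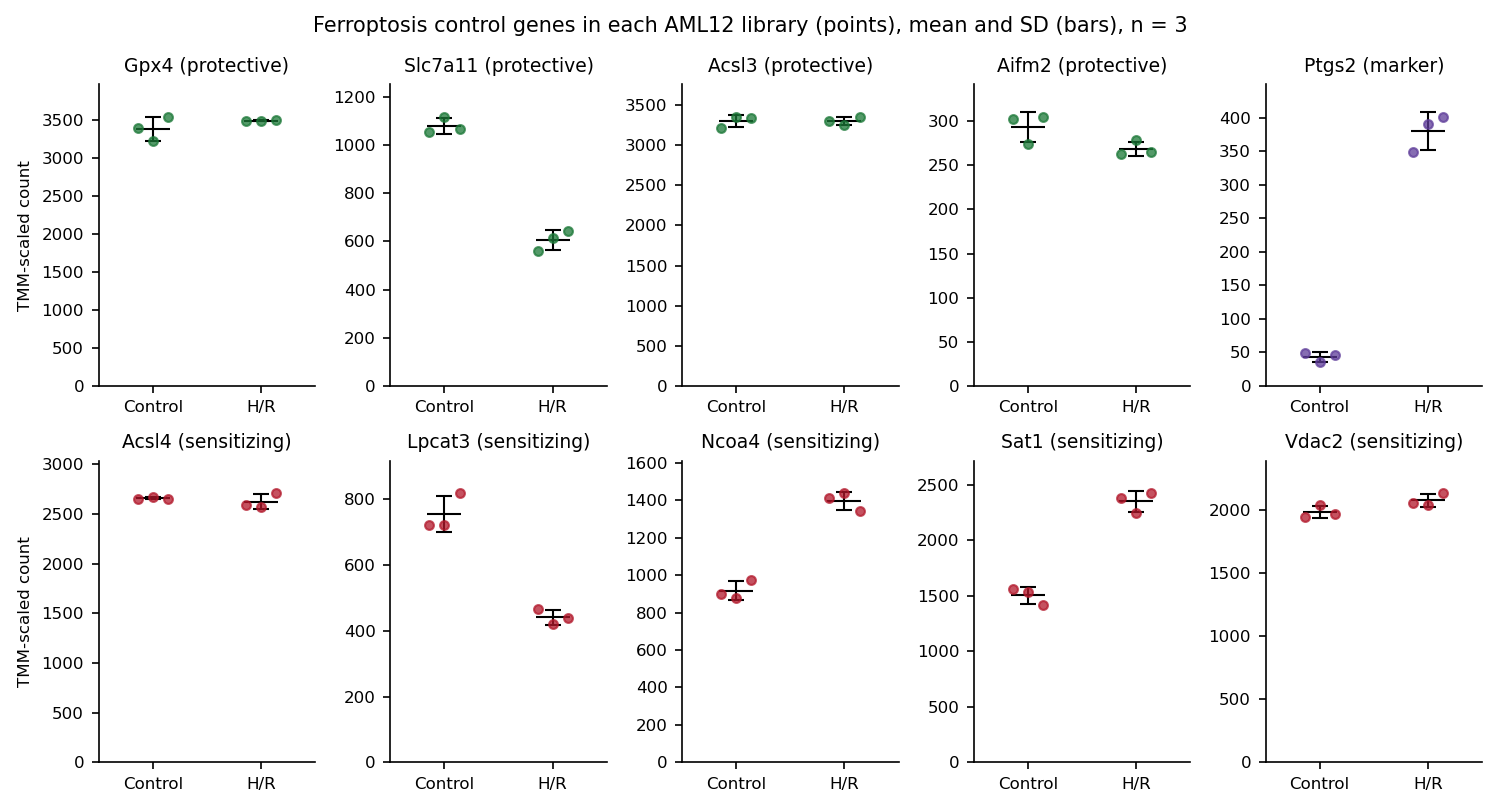
TMM-scaled counts (y axis, from 0, a separate scale for each gene) of the 10 genes in the 3 Control and 3 H/R libraries, with points for libraries and bars for the mean and SD. The groups are apart in Slc7a11, Lpcat3, Ncoa4, Sat1 and Ptgs2, and they overlap in Gpx4, Acsl3, Aifm2, Acsl4 and Vdac2.

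Among the protective genes, Slc7a11 fell and Gpx4 did not pass the test. TMM-scaled counts, which are counts brought to a common library size, are given in the order of replicates 1 to 3. Slc7a11 (chr3:49892526-50443614, minus strand, GRCm38) had 1053, 1118 and 1069 in the control libraries and 562, 613 and 645 after H/R. All 3 H/R libraries lay below all 3 controls. The mean went from 1080 ± 33.8 to 606 ± 41.5 (SD, n = 3), for a log2 fold change of -0.83 (SE 0.059, edgeR adjusted p = 2.42e-14). Without Control replicate 1 it was -0.85. The last exon of Slc7a11, after its last coding base, holds 372 bases (chr3:50370391-50370762) that are 95.4% to 96.2% identical to the antisense of the alpha-tubulin transcripts. The tubulin genes fell further than Slc7a11, with log2 fold changes of -1.48 for Tuba1a, -1.36 for Tuba1b and -0.98 for Tuba1c. Taking reads off these bases at the highest read density of 4 tubulin pseudogenes removed 15.8% to 28.1% of the counts, and the log2 fold change was then -0.66 (SE 0.069, edgeR adjusted p = 4.01e-10).

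Gpx4 (chr10:80047166-80056439, plus strand) had 3395, 3223 and 3547 scaled counts in the control libraries and 3486, 3492 and 3499 after H/R. Every H/R value lay inside the range of the controls. The log2 fold change was 0.04 with a 95% interval of -0.04 to 0.13 (edgeR adjusted p = 0.395), so a change of the size seen in Slc7a11 lies outside the interval. Its sign turned with upper quartile scaling and library totals, and it was 0.04 without Control replicate 1.

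Acsl3 (chr1:78657825-78707743, plus strand) had 3213, 3345 and 3333 scaled counts in the control libraries and 3305, 3248 and 3354 after H/R, which overlap. Its log2 fold change had an interval of -0.08 to 0.09 (edgeR adjusted p = 0.962). It shares 244 exon bases on the same strand with Utp14b, and its log2 fold change was 0.01 with those bases taken off. Without Control replicate 1 it was -0.02.

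Aifm2 (chr10:61715263-61739260, plus strand) had 302, 274 and 305 scaled counts in the control libraries and 263, 278 and 265 after H/R. H/R replicate 2 lay above Control replicate 2, so the groups overlap. The log2 fold change was -0.13 with an interval of -0.31 to 0.05 (edgeR adjusted p = 0.202), and -0.11 without Control replicate 1. The call depended on the scaling, since library totals gave -0.23 with an adjusted p of 0.0229 and upper quartile scaling -0.20 with 0.0459.

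Among the sensitizing genes, both directions occurred. Sat1 and Ncoa4 rose, Lpcat3 fell, and Acsl4 and Vdac2 did not pass. Acsl4 (chrX:142317993-142390535, minus strand) had 2651, 2667 and 2649 scaled counts in the control libraries and 2589, 2571 and 2708 after H/R. The H/R values lay on both sides of the controls. The log2 fold change was -0.02 with an interval of -0.11 to 0.07 (edgeR adjusted p = 0.735), and -0.02 without Control replicate 1. With library totals it was -0.12 with an adjusted p of 0.0141, against the shift of -0.12 in the median of all genes under that scaling.

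Lpcat3 (chr6:124663027-124704418, plus strand) had 722, 723 and 818 scaled counts in the control libraries and 465, 421 and 438 after H/R. The groups are far apart. The mean went from 754 ± 55.1 to 441 ± 22.5 (SD, n = 3), for a log2 fold change of -0.77 (SE 0.067, edgeR adjusted p = 3.65e-12). It was -0.81 without Control replicate 1. Lpcat3 shares 334 exon bases with Emg1 on the opposite strand, and whether reads were counted by strand is not given in the sources used here. With these bases taken off at the read density of Emg1, the log2 fold change was -0.86 (edgeR adjusted p = 1.95e-12).

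Ncoa4 (chr14:32159865-32179855, plus strand) had 900, 877 and 973 scaled counts in the control libraries and 1410, 1437 and 1342 after H/R. All H/R libraries lay above all controls. The mean went from 917 ± 49.8 to 1396 ± 48.7 (SD, n = 3), a 1.52-fold rise with a log2 fold change of 0.61 (SE 0.054, edgeR adjusted p = 5.74e-12). Without Control replicate 1 it was 0.59, and it was 0.60 when the counts of Gm6768, a copy of 99.6% identity, were added.

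Sat1 (chrX:155213132-155216449, minus strand) had 1565, 1535 and 1418 scaled counts in the control libraries and 2380, 2245 and 2423 after H/R. The mean went from 1506 ± 77.9 to 2350 ± 92.8 (SD, n = 3), a 1.56-fold rise with a log2 fold change of 0.64 (SE 0.048, edgeR adjusted p = 9.61e-14). Without Control replicate 1 it was 0.67. Vdac2 (chr14:21831269-21845879, plus strand) had 1937, 2035 and 1969 in the control libraries and 2054, 2034 and 2129 after H/R, with an overlap of Control replicate 2 and H/R replicate 2. Its log2 fold change was 0.07 with an interval of -0.03 to 0.16 (edgeR adjusted p = 0.208), and 0.05 without Control replicate 1. Its sign, too, turned under both of those scalings.

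The marker Ptgs2 (chr1:150100031-150108227, plus strand) rose most. It had 49.2, 35.1 and 46.1 scaled counts in the control libraries and 349, 390 and 402 after H/R. The lowest H/R value was several times the highest control. The mean went from 43.5 ± 7.42 to 380 ± 27.8 (SD, n = 3), an 8.71-fold rise (95% interval 7.31 to 10.4) with a log2 fold change of 3.12 (SE 0.125, edgeR adjusted p = 2.75e-21). By absolute log2 fold change, 37 of the 14020 tested genes changed more. Without Control replicate 1 it was 3.22. On the log2(RPKM + 1) scale, which understates the change of low genes, the difference was 1.71. The 2 tested genes whose profile over the 6 libraries was nearest to that of Ptgs2, by Euclidean distance between centred log2 CPM, were the predicted gene Gm2895 at 0.234 and Bnip3, a hypoxia-induced mitophagy receptor, at 0.255. Bnip3 had 473 to 665 scaled counts in the control libraries and 4628 to 4808 after H/R. With 3 libraries a group, an exact two-sided permutation test cannot go below p = 0.1, which was the value of each of the 5 genes whose groups did not overlap.

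**Figure D2:**
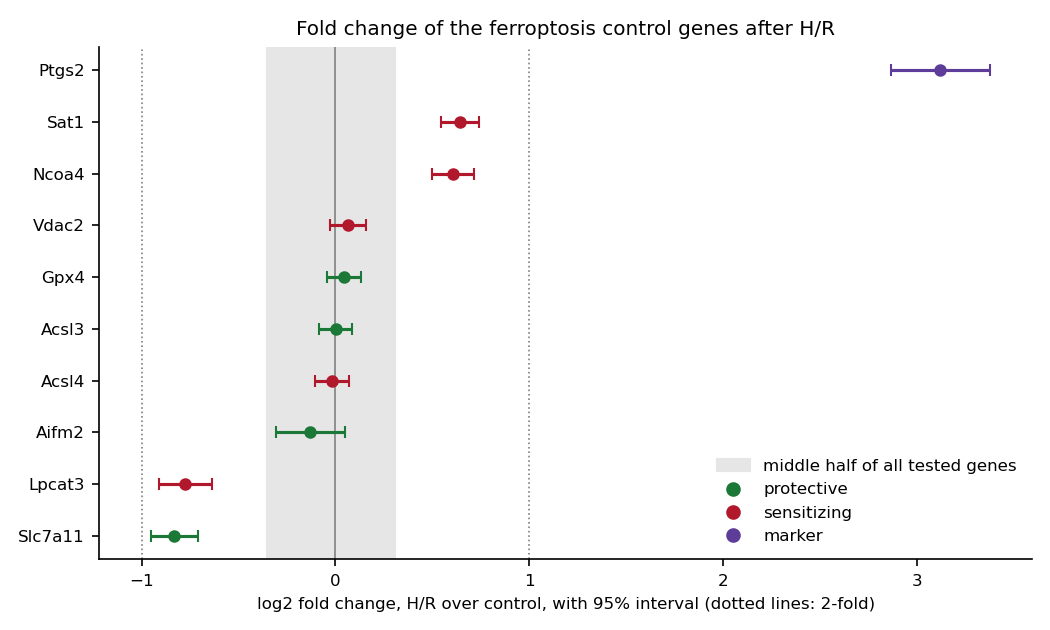
Log2 fold change of H/R over Control (x axis) of the 10 genes, ordered by size, with 95% intervals from edgeR and colours for class. The grey band is the middle 50% of all tested genes (-0.35 to 0.31) and the dotted lines mark a 2-fold change. Slc7a11 and Lpcat3 lie left of the band, Ncoa4, Sat1 and Ptgs2 right of it, and the intervals of the other 5 genes include 0.

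Set side by side, the protective and the sensitizing genes did not form separate blocks. The median log2 fold change was -0.06 over the 4 protective genes and 0.07 over the 5 sensitizing genes, against -0.01 over all tested genes. Without Control replicate 1 these medians were -0.06 and 0.05. Of the 4 protective genes 1 was lower and none higher, and of the 5 sensitizing genes 2 were higher and 1 lower. Over all tested genes 31.0% were higher and 31.8% lower, and nothing is drawn from counts this small. The mean log2 CPM of the protective genes minus that of the sensitizing genes is a difference within a library, in which the library scaling cancels. It was -0.03, -0.05 and -0.02 in the control libraries and -0.42, -0.33 and -0.36 after H/R, so the groups did not overlap. The mean difference went from -0.03 ± 0.013 to -0.37 ± 0.046 (SD, n = 3). With TMM scaling the protective mean moved by -0.23, where Slc7a11 was the only gene past the test, and the sensitizing mean by 0.11. The score rests on the choice of members and has no test.

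Per length, Gpx4 was the most abundant of the 10 transcripts in both groups. In RPKM, reads per kilobase of exon scaled to the library total, its level was 96.3 ± 5.76 in the control libraries and 92.3 ± 1.01 after H/R (SD, n = 3). In the controls it was followed by Acsl3 (37.1), Sat1 (26.6), Acsl4 (24.1), Vdac2 (20.8), Lpcat3 (11.3), Ncoa4 (10.1), Slc7a11 (3.80), Aifm2 (3.49) and Ptgs2 (0.465). Lpcat3 and Ncoa4 overlapped between libraries, as did Slc7a11 and Aifm2, while the other neighbours in this order did not. After H/R, Sat1 (38.6) came before Acsl3 (34.5), Ncoa4 (14.3) before Lpcat3 (6.15), and Ptgs2 (3.78) before Aifm2 (2.97) and Slc7a11 (1.98). No neighbours overlapped in that order. The level of Slc7a11 is divided by 13922 exon bases, which in these tables include a remote exon of a long transcript, so its RPKM is low for its count.

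The partner of Slc7a11 moved the other way. Slc3a2, the heavy chain of the cystine importer, had 22518 to 24179 scaled counts in the control libraries and 35988 to 38153 after H/R, a log2 fold change of 0.67 (SE 0.046, edgeR adjusted p = 9.78e-15). The RPKM of Slc3a2 was 85.5 ± 4.39 times that of Slc7a11 in the controls and 243 ± 20.8 times after H/R (SD, n = 3), without overlap (exact two-sided permutation p = 0.1, the smallest possible). The size of these ratios depends on the long exon length of Slc7a11, which is the same in both groups. Reads on its tubulin-like bases were not taken off here. Slc7a5 and Slc7a8, other light chains that pair with Slc3a2 and carry neutral amino acids, rose by log2 0.76 and 2.13. Slc7a8 stayed low, at 7.53 to 13.7 scaled counts in the controls and 38.8 to 56.0 after H/R.

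Of the 13 genes on the list of cystine supply and glutathione, 4 were higher, 5 lower and 4 did not pass, with a median log2 fold change of 0.10. Chac1, an enzyme that degrades glutathione, had 75.7, 53.6 and 77.2 scaled counts in the control libraries and 487, 684 and 514 after H/R. It rose 8.12-fold, a log2 fold change of 3.02 (SE 0.165, edgeR adjusted p = 9.05e-09). The genes of glutathione synthesis and recycling were lower, with log2 fold changes of -0.34 for Gclc, -0.37 for Gclm, -0.20 for Gss and -0.41 for Gsr. Cth, which makes cysteine by transsulfuration, was higher by 0.41, and Slc1a5, a glutamine carrier, was lower by 0.59 on the log2 scale. Gss shares exon bases with Acss2 on the opposite strand.

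Of 10 tested genes that supply selenium and build selenoproteins such as GPX4, 6 were lower and 3 higher, with a median of -0.18, against 31.8% lower, 31.0% higher and a median of -0.01 over all tested genes. Gpx4 itself did not pass. Sephs2, which makes the selenium donor, had 2137 to 2361 scaled counts in the control libraries and 650 to 769 after H/R, a log2 fold change of -1.71 (SE 0.058, edgeR adjusted p = 1.75e-21). A fraction of 0.364 of its exon bases is shared with Gm44729 on the opposite strand. Lrp8, a receptor for selenoprotein P, fell by 1.34 on the log2 scale, and Selenop, which encodes that protein, by 0.22. Gpx1, a paralog of Gpx4 and itself a selenoenzyme, rose by log2 0.64 (SE 0.051, edgeR adjusted p = 4.57e-11), and the RPKM of Gpx4 over that of Gpx1 went from 0.893 ± 0.0896 to 0.589 ± 0.0145 (SD, n = 3).

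Aifm2 belongs with the genes of radical trapping and monounsaturated lipids. Of 18 tested genes on that list, 12 were lower and 1 higher, with a median of -0.30, against 31.8% lower and 31.0% higher over all tested genes. Nqo1 and Mboat2 were not tested because of low counts. Dhcr7, which converts the radical-trapping sterol 7-dehydrocholesterol to cholesterol, had 929 to 956 scaled counts in the control libraries and 273 to 302 after H/R, a log2 fold change of -1.73 (SE 0.066, edgeR adjusted p = 7.04e-22). The enzyme consumes that protective sterol, so the list joins genes of opposite roles. Pdss2, of coenzyme Q synthesis, fell by 1.45 on the log2 scale and Scd2, which makes monounsaturated fatty acids, by 0.93. The gene that was higher was Gch1, of tetrahydrobiopterin synthesis, by log2 0.80.

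**Figure D3:**
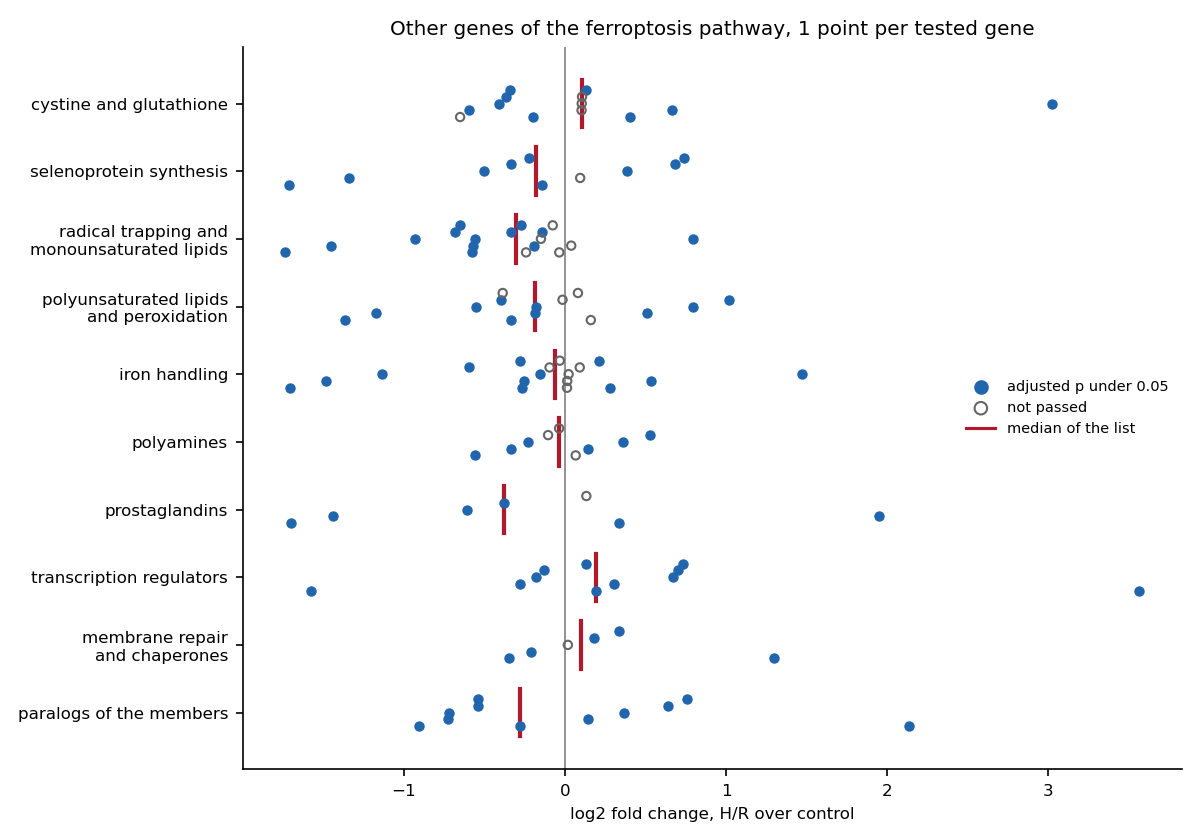
Log2 fold change of H/R over Control (x axis) of the 117 tested genes on 10 pathway lists (rows), 1 point per gene, filled where the edgeR adjusted p was under 0.05, with the median of each list as a red line. The median of the radical trapping list is at -0.30 and that of the transcription regulators at 0.19. Chac1 (3.02) and Atf3 (3.56) lie farthest to the right.

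Beside Acsl4 and Lpcat3, the list of polyunsaturated lipids and their peroxidation had 14 tested genes, 7 lower and 3 higher, with a median of -0.18. The background over all tested genes was 31.8% lower and 31.0% higher. Acaca, acetyl-CoA carboxylase, which feeds fatty acid elongation, went from 5126 to 5346 scaled counts in the controls to 2012 to 2071, a log2 fold change of -1.37 (SE 0.043, edgeR adjusted p = 2.52e-24). Tmem164, an acyltransferase of ether lipids, fell by 1.17 on the log2 scale and Fads2, a desaturase of polyunsaturated fatty acids, by 0.55. Cyb5r1 and Por, oxidoreductases that feed lipid peroxidation, rose by log2 1.02 and 0.51. The lipoxygenases Alox5, Alox12 and Aloxe3 were not tested because of low counts.

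Of the 11 tested paralogs of the 10 genes, 5 were higher and 6 lower, with a median of -0.28. For all tested genes the shares were 31.0% higher and 31.8% lower. Among the paralogs of Acsl3, Acsl4 and Lpcat3, Acsl6 and Lpcat2 had too few counts to be tested. Acsl5 went from a mean of 218.6 to 140.1 RPKM, a log2 fold change of -0.54 (SE 0.042, edgeR adjusted p = 3.36e-13), and its RPKM was 9.09 times that of Acsl4 in the controls and 6.34 times after H/R. Acsl1, Lpcat1 and Lpcat4 fell by 0.90, 0.72 and 0.28 on the log2 scale. The RPKM of Acsl4 over that of Acsl3, the sensitizing and the protective synthetase, was 0.650 ± 0.0136 in the controls and 0.640 ± 0.00992 after H/R (SD, n = 3), which overlap (exact two-sided permutation p = 0.4).

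Of 18 tested genes of iron handling, the list beside Ncoa4, 8 were lower and 4 higher, with a median of -0.06, against 31.8% lower and 31.0% higher over all tested genes. Tfrc, the transferrin receptor, had 2757, 2541 and 2532 scaled counts in the control libraries and 829, 729 and 839 after H/R, a log2 fold change of -1.71 (SE 0.054, edgeR adjusted p = 1.13e-23). Steap3, a ferrireductase of the transferrin route, had a log2 fold change of -0.25 (edgeR adjusted p = 0.0121). Slc11a2, the importer DMT1, and Slc40a1, the exporter ferroportin, fell by 1.14 and 0.59 on the log2 scale. Trf, transferrin, fell by 1.48, but shares a fraction of 0.635 of its exon bases with Gm20425 on the same strand. Hmox1, which frees iron from heme, rose from 1104 to 1211 scaled counts in the controls to 2986 to 3275, by log2 1.47 (SE 0.049, edgeR adjusted p = 2.13e-23). Slc39a14, an importer of iron that is not bound to transferrin, rose by log2 0.28. Fbxl5, which marks the iron regulatory protein IREB2 for decay, rose by log2 0.54, and Ireb2 fell by 0.28.

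The RNA of the cargo of NCOA4 did not follow it. Fth1, the ferritin heavy chain, had a log2 fold change of 0.09 (SE 0.045, edgeR adjusted p = 0.0728), with a sign that turned under library totals, and Ftl1, the light chain, of -0.15 (SE 0.045, edgeR adjusted p = 0.00319). Fth1 passed with DESeq2 (adjusted p = 0.0188) and without Control replicate 3 (edgeR adjusted p = 0.0247). Ftl1 shares exon bases with Gm10252 on the opposite strand. The RPKM of Fth1 was 302 ± 7.35 times that of Ncoa4 in the controls and 211 ± 5.43 times after H/R (SD, n = 3), without overlap.

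**Figure D4:**
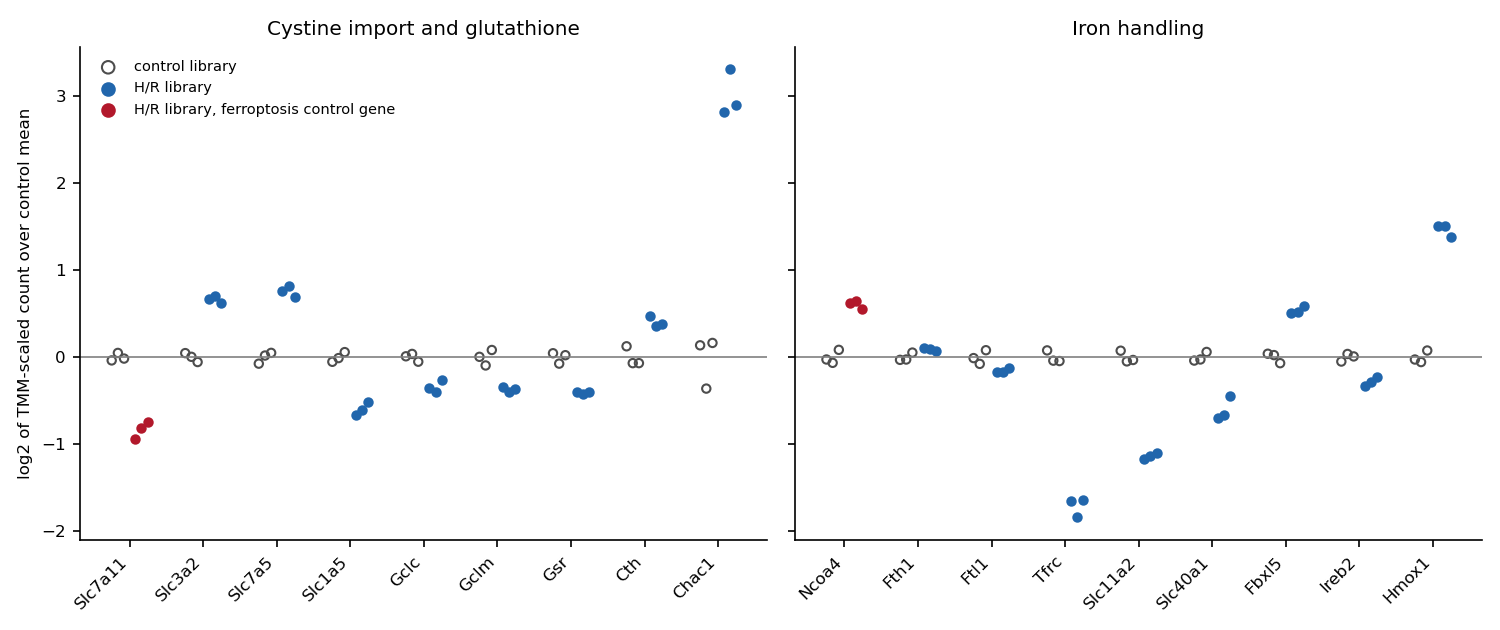
Log2 of the TMM-scaled count over the control mean (y axis) of 9 genes of cystine import and glutathione (left) and 9 of iron handling (right), with open points for Control and filled points for H/R libraries, and red for Slc7a11 and Ncoa4. Slc7a11 lies below its controls while Slc3a2, Slc7a5 and Chac1 lie above theirs, and Ncoa4 and Hmox1 lie above while Tfrc and Slc11a2 lie below.

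Sat1 stood among polyamine genes that moved both ways. Of 9 tested, 3 were higher and 3 lower, with a median of -0.04, against 31.0% higher and 31.8% lower over all tested genes. Smox and Sms, which oxidise and make spermine, rose by log2 0.53 and 0.36, and Srm, spermidine synthase, fell by 0.55. Odc1, the first enzyme of the route, had a log2 fold change of 0.14 (SE 0.046, edgeR adjusted p = 0.00867) that did not pass with library totals (0.04, adjusted p = 0.50), with upper quartile scaling (0.07, adjusted p = 0.186) or without Control replicate 2 (0.10, adjusted p = 0.0607). Vdac1, a paralog of Vdac2, was higher by log2 0.37, and Vdac1 over Vdac2 went from 3.83 ± 0.193 to 4.71 ± 0.0467 in RPKM (SD, n = 3).

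Of the prostaglandin genes around Ptgs2, 2 of 7 tested were higher and 4 lower, with a median of -0.38. Across all tested genes, 31.0% were higher and 31.8% lower. Ptges, the inducible prostaglandin E synthase, had 10.4, 6.83 and 8.47 scaled counts in the control libraries and 30.2, 32.4 and 38.0 after H/R, a log2 fold change of 1.95 (SE 0.315, edgeR adjusted p = 1.93e-06). Both stayed at low levels compared with Ptges3, the cytosolic synthase subunit, which fell by 0.38 on the log2 scale from 89.9 to 64.4 RPKM. Ptgds and Hpgd, a prostaglandin D synthase and the enzyme that inactivates prostaglandins, fell by 1.70 and 1.44, with at most 77.2 scaled counts in a library. Ptgs1, the constitutive cyclooxygenase, rose by log2 0.34. Its RPKM was 9.68 ± 2.16 times that of Ptgs2 in the controls and 1.36 ± 0.0701 times after H/R (SD, n = 3). Ptgs2 is also expressed by macrophages, and macrophage and blood markers summed to 3.0 to 3.61 CPM in the controls and 8.51 to 10.0 after H/R. Of these markers 2 of 7 passed the filter, Cd68 (log2 fold change 2.77), a lysosomal protein not limited to macrophages, and Csf1r (0.63), while Ptprc, Adgre1 and Clec4f had at most 3 counts in any library. In bulk samples, a change in the number of cells of a type and a change in RNA per cell cannot be told apart.

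Of the 11 transcription regulators tested, 7 were higher and 4 lower, with a median of 0.19. The shares over all tested genes were 31.0% higher and 31.8% lower. Atf4, which activates amino acid response genes and with them Slc7a11, had 11491 to 11566 scaled counts in the control libraries and 18768 to 19607 after H/R, a log2 fold change of 0.73 (SE 0.044, edgeR adjusted p = 2.11e-16). Atf3, which represses Slc7a11 in other cells, had 249 to 312 in the controls and 3299 to 3470 after H/R, a log2 fold change of 3.56 (SE 0.061, edgeR adjusted p = 1.76e-31). Nfe2l2 and Hif1a rose by log2 0.67 and 0.70, Trp53 and Keap1 fell by 0.28 and 0.18 on the log2 scale, and Epas1 fell by 1.58. Of 6 tested genes of membrane repair and chaperones, 3 were higher and 2 lower, beside the same shares over all tested genes. Among the higher was Hspa5, the endoplasmic reticulum chaperone that binds GPX4, which rose by log2 1.30 (SE 0.046, edgeR adjusted p = 1.13e-22).

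Over all 10 lists, 92 of the 117 tested genes passed the test, 35 higher and 57 lower, which is 78.6% against 62.8% of all genes. A further 16 of the 136 listed genes had too few counts to be tested. The other 3 (Alox15, Tfap2c and Gpx7) were not found by symbol among the genes counted. The median log2 fold change of the tested genes was -0.14. At least 2-fold changes were found in 7 of them upward and in 12 downward, whereas of the 10 ferroptosis control genes only Ptgs2 reached that size. The lists were written with knowledge of the pathway and of earlier results on these libraries, and nothing is drawn from the share they passed.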

How the data were processed

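RNA was taken up in TRIzol, and paired-end reads were obtained from stranded mRNA libraries. The submitters' processing notes name GRCm38, Trimmomatic 0.36, featureCounts of Subread 1.5.1 and edgeR 3.12.1, and the strand setting of the counting and the annotation release are not given in the sources used here. The deposited counts are raw whole numbers of reads for each gene. The deposited RPKM values scale these counts by exon length and library total, and were recomputed from the counts to a relative error of 1.13e-06.

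Counts were tested in R 4.3.3 with edgeR 4.0.16 (filterByExpr, TMM, robust glmQLFit, glmQLFTest, Benjamini-Hochberg adjustment over 14020 genes, call at an adjusted p under 0.05). Standard errors came from the F statistic. The script was tested on simulated data in which few genes changed. In these data most tested genes were called, so that test does not cover the dependence on library scaling. Alternatives used DESeq2 1.42.0, limma 3.58.1 on log2(RPKM + 1) and log2(RPKM + 0.1), other scalings and filters, a replicate block and the removal of each library. Named genes were the 10 genes, of each list the 3 largest changes past both thresholds and the gene with the highest mean RPKM, and the 2 nearest profiles to a gene past both thresholds. Other genes named, among them Slc7a5, Gclc, Gpx1, Por, Slc11a2, Smox, Vdac1 and Nfe2l2, were chosen after their values were seen. The 10 genes and the lists were chosen with earlier results of these data known. Shared exon bases were found from the exon coordinates deposited with the counts. Near-identical copies and the tubulin-like bases were found with GENCODE M21 transcripts (GRCm38). The corrections for all of these were chosen after seeing the data.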

Additional observations from a re-analysis of the deposited data

How the results depend on the processing

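The calls of Slc7a11, Lpcat3, Ncoa4, Sat1 and Ptgs2 held in each of the 14 alternative fits. Log2 fold changes ranged from -0.94 to -0.69 for Slc7a11, -0.88 to -0.71 for Lpcat3, 0.46 to 0.65 for Ncoa4, 0.52 to 0.67 for Sat1 and 1.71 to 3.22 for Ptgs2. With library totals 8 of the 10 genes were called, 3 higher and 5 lower. Of the 14020 tested genes, 8824 were called under that scaling, 3346 higher and 5478 lower. With a fold of at least 1.5 in place of 2, 5 of the 10 genes and 3420 of the 14020 tested genes passed. With log2(RPKM + 1), 406 genes passed at 2-fold against 1195. With log2(RPKM + 0.1), which differs from it in the pseudocount alone, 983 passed. The cause of the rest of the move was not tested. The protective median was -0.134 under upper quartile scaling, -0.168 with library totals, -0.138 with log2(RPKM + 1) and -0.164 with log2(RPKM + 0.1). The sensitizing median was -0.00479, -0.0391, -0.0375 and -0.0391 in the same 4 settings, and 0.294 without Vdac2. In these 4 settings the sign turned for Gpx4 (-0.0270, -0.0620, -0.0595 and -0.0600), Acsl3 (-0.0679, -0.102, -0.0993 and -0.102) and Vdac2 (-0.00479, -0.0391, -0.0375 and -0.0391), and Fth1 turned in the last 3 (-0.0130, -0.0116 and -0.0116). Acsl3 was -0.00624 with at least 10 counts in every library and lay between -0.0159 and 0.0126 when any 1 library was dropped. These settings move the median of all genes to as low as -0.12, and beyond this the cause was not tested. Leaving out 1 library at a time gave 8105 to 8521 genes called, 1211 to 1290 at 2-fold, 5 of the 10 genes throughout, and 84 to 92 of the pathway genes.

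Replicate numbers did not pair the samples: libraries of the same number, centred on their groups, correlated at -0.03, 0.00 and -0.01. With the replicate block, 8787 genes were called and 1200 at 2-fold, with 5 of the 10 genes and 92 pathway genes, and Fth1 passed (0.09, edgeR adjusted p = 0.0437). Leaving out genes that share exon bases removed Acsl3, Aifm2, Lpcat3 and Vdac2 from the fit. Of the ferroptosis genes that stayed, 4 were called, 3 higher and 1 lower. Depth limits the genes with few counts, such as Ptgs2, Chac1, Ptges, Ptgds, Slc7a8, Hpgd, Cd68 and Csf1r, which had under 80 scaled counts in each control library.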
